A study of Mus musculus with 2 samples.

Results

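This account follows the antisense genes counted in RNA of cells sorted as small peritoneal macrophages during endotoxemia. Each is set beside the protein-coding gene it overlaps on the other strand. A gene was a member if the GENCODE M21 annotation gives it the type antisense and if it had 50 or more raw counts in at least 1 of the 2 libraries. Of 2959 annotated antisense genes in the table, 1527 had at least 1 count and 269 met the rule. The members were thus selected on their raw counts in these same libraries, and their levels are given as a description. A protein-coding gene on the other strand was found for 251 members, and these partners were 249 different genes. The remaining 18 members overlapped no protein-coding gene on the other strand.

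The cells were sorted from the peritoneal cavity of outbred SWISS mice, males aged 5 weeks. Mice of both groups received 20 mg/kg lipopolysaccharide (LPS) of Escherichia coli into the peritoneum, 30 mL/kg saline under the skin 6 h later, and were killed 22 h after LPS. The LPS+LCC-12 group also received 0.3 mg/kg LCC-12, a compound known to target copper in mitochondria, 6 h after LPS. The LPS library was 1 pool of 102283 cells from 7 mice and the LPS+LCC-12 library 1 pool of 66967 cells from 8 mice. Mice without LPS were not analysed here. Because each group is 1 library without replicates, no test was possible, and each difference given below is between these libraries and not between the treatments.

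Antisense RNAs are transcribed from the strand opposite to another gene. Many are spliced, stay in the nucleus and are made at low levels. Some act on the gene they face, by silencing an imprinted domain, by interfering with transcription through the same DNA, or by pairing with the sense RNA. Others only mark an active promoter or enhancer, where RNA polymerase starts in both directions, and macrophages stimulated with LPS make many RNAs of this kind.

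The libraries held 50618409 and 47721888 counts, in the order LPS alone and then LPS+LCC-12, which is the order of every pair of counts below. The 10 small peritoneal macrophage markers and the 6 general macrophage markers were all detected, with summed levels of 2400 and 2831 CPM (counts scaled to library size) for the first list and 5188 and 6860 CPM for the second. Markers of other cells differed too. The 10 neutrophil markers summed to 9271 and 3503 CPM, with 7 at least 2-fold lower, and the 5 monocyte markers to 2853 and 1072, with 5 lower. The 8 large peritoneal macrophage markers summed to 1074 and 1589, with 5 at least 2-fold higher, as were 8 of the small peritoneal macrophage markers. Some scarcer markers were lower too, with sums of 15.2 and 5.40 CPM for mast cells (4 of 6 markers at least 2-fold lower), 7.55 and 1.32 for mesothelial cells (4 of 6) and 12.4 and 3.64 for fibroblasts (3 of 5). No marker of these 8 lists was at 0 in both libraries. Further lists went both ways. The 6 B cell markers summed to 161 and 186 CPM with 0 past 2-fold, and the 4 platelet markers to 68.0 and 145, with 1 lower and 1 higher. The 3 eosinophil markers summed to 0.641 and 1.18 CPM. Sums for T cell, NK cell, dendritic cell, endothelial and erythroid markers were lower with LCC-12, but not every marker was. Among endothelial markers, Pecam1 had 6327 and 2869 counts, whereas Cdh5 had 33 and 62 and Tie1 had 27 and 35. Trac of the T cell list (2 and 5 counts) and Klrb1c of the NK cell list (1 and 11) had more counts with LCC-12. The rest of both lists had fewer. In pooled cells, fewer cells of a type and less RNA per cell cannot be told apart, and the part of these cells in the results below was not tested.

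Whether the counts were assigned by strand is not given in the sources used here, and it decides how an antisense count can be read. Over all annotated genes that lie wholly in introns of a protein-coding gene with 1000 or more counts, 285 antisense genes had a median of 2.53 counts per kilobase over both libraries, or 0.293% of the host's level per kilobase. The 180 sense intronic genes, which lie in introns on the host's own strand, had a median of 82.3 counts per kilobase, or 10.2%. Intron RNA was thus counted far more on the host's strand than on the other. The 38 antisense genes with every exon base inside a partner exon still had a median of 45.9 counts per kilobase, or 3.65% of the partner. By a separate rule, with no minimum set for the partner, 8 members had every exon base inside an exon of the other strand. Each of these 8 had a lower log2 ratio than its partner, as did the antisense gene in 168 of 247 pairs in all. Apol7d, covered in part, shares 292 exon bases with Fn1, which encodes fibronectin. Fn1 counts were 155522 and 515430, a level 3.42-fold higher with LCC-12, whereas Apol7d had 128 and 147 counts (log2 ratio 0.24, 95% counting interval -0.11 to 0.60). Apol7d was chosen after its values were seen. Reads of overlapping exons cannot be assigned with certainty.

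The members were short and sparsely counted. Their exons covered from 205 to 93092 bases with a median of 1701, and the median number of exons was 3, with 40 members of a single exon. The lowest, median and highest raw counts were 14, 114 and 10357 without LCC-12 and 2, 80 and 6751 with it. The partners had medians of 3549 and 3045 counts. All members together held 80039 and 54357 counts, or 0.158% and 0.114% of each library. Without BC018473, the member with the largest loss of counts, the sums were 74070 and 54061.

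With LCC-12, 78 of the 269 antisense genes were at least 2-fold lower (29.0%), 13 were higher by that factor (4.83%) and 178 lay between these limits, termed within 2-fold. Ratios were taken with LCC-12 over without, after scaling for library size, and the greater count of a gene had to reach 50. Over all 13482 genes at that level, 6.65% were lower and 4.01% higher. Over 11220 protein-coding genes the shares were 4.46% and 3.81%. The share of antisense genes that were lower was therefore several times the background, while the share that were higher was near it. The median log2 ratio was -0.45 for the members, with 196 below 0, against 0.05 for the protein-coding genes. Long intergenic noncoding RNA genes (lincRNAs), which overlap no coding gene, had 28.2% lower and 5.77% higher of 312 genes, with a median of -0.42. Antisense genes did not stand apart from lincRNAs in this count. Among noncoding genes of other kinds, the shares lower and higher were 11.7% and 4.50% of 111 sense intronic genes, 13.6% and 6.40% of 375 processed pseudogenes and 18.0% and 6.59% of 167 processed transcripts. They were 12.4% and 4.13% of 654 TEC genes, which are transcribed regions still to be checked by the annotators.

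**Figure D1:**
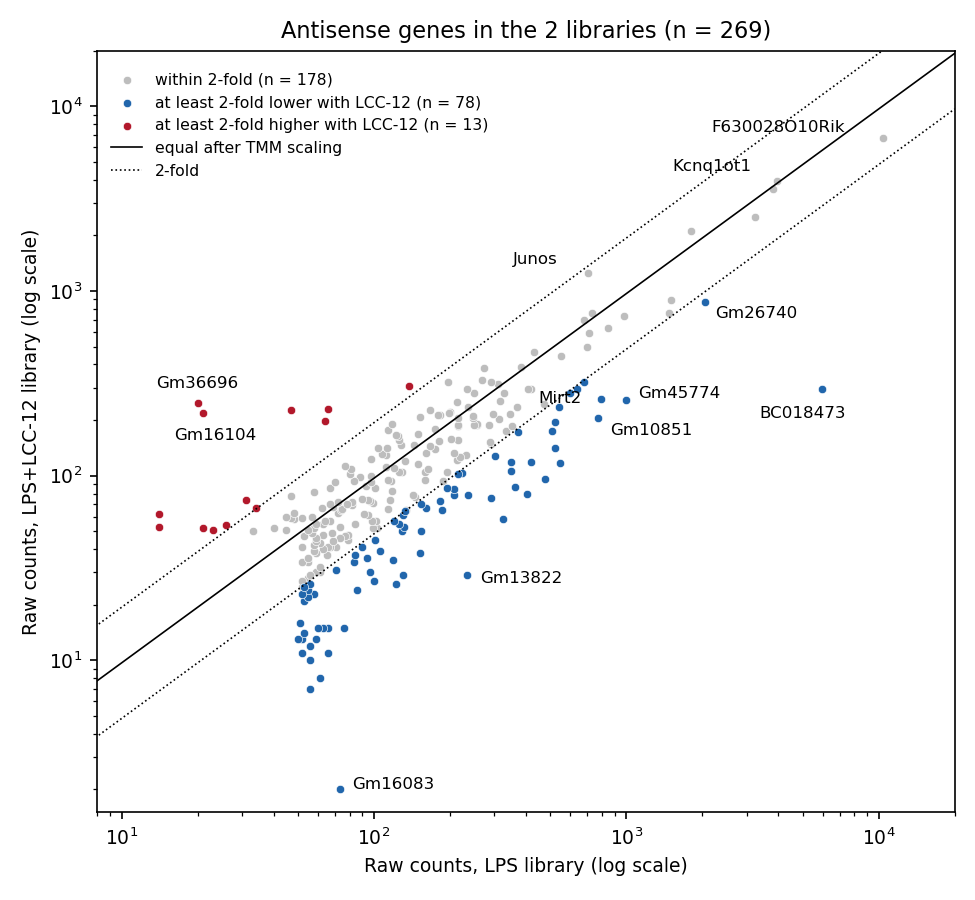
Raw counts of the 269 antisense genes with LPS alone (x axis, log scale) and with LPS+LCC-12 (y axis, log scale), 1 point per gene, coloured by the 2-fold rule. The solid line marks equal levels after scaling, and the 78 genes below the lower dotted line are at least 2-fold lower with LCC-12, against 13 above the upper one.

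The share of antisense genes that were lower was not smaller in the highest range of counts than in the lowest. In the range of 50 to 99 counts in the higher library, 27.0% of 111 antisense genes and 17.2% of 687 protein-coding genes were at least 2-fold lower. At 500 or more counts the shares were 46.4% of 28 antisense genes and 2.97% of 8004 protein-coding genes, and no antisense gene was at least 2-fold higher there. The rule itself favours differences at its edge. By the count rule, 69 members passed through the LPS library alone and 38 of them were lower, whereas 18 passed through the LPS+LCC-12 library alone and 10 of them were higher. Of the 182 members with 50 or more counts in both libraries, 40 were lower and 3 higher, with a median log2 ratio of -0.29. Requiring a mean of 50 counts over both libraries left 225 antisense genes, of which 24.4% were lower and 3.56% higher, beside 3.73% and 3.54% of protein-coding genes.

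**Figure D2:**
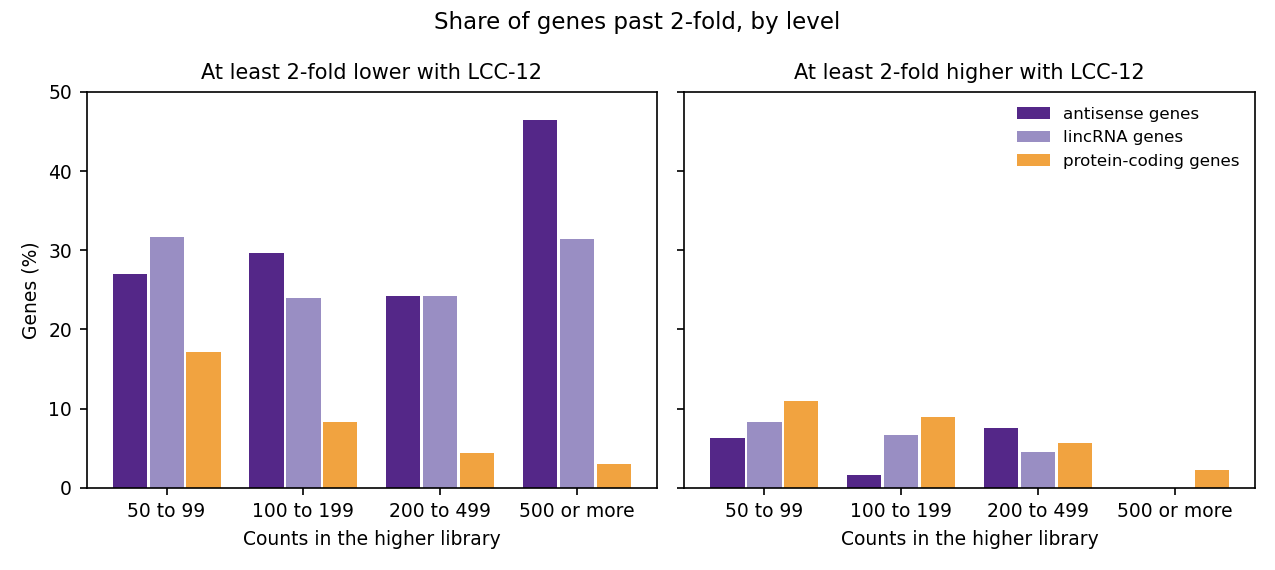
Percentage of antisense, lincRNA and protein-coding genes that were at least 2-fold lower (left) or at least 2-fold higher (right) with LCC-12, by the gene's raw counts in the higher library, as shares without error bars. In the left panel the antisense bars are above the protein-coding bars in each range, from 27.0% against 17.2% to 46.4% against 2.97%.

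The shares differed between classes of position relative to the partner. Beside them stand 29.0% lower and 4.83% higher of all members, and 6.65% and 4.01% of all genes. The classes were not matched for level or for how members met the count rule, and the part of position itself was not tested. Of 105 antisense genes lying inside the partner's body, 43 were lower and 6 higher, with a median log2 ratio of -0.76. Of 79 head-to-head pairs, in which the 5' ends overlap, 19 were lower and none was at least 2-fold higher, with a median of -0.35. Of 54 tail-to-tail pairs, in which the 3' ends overlap, 11 were lower and 4 higher, with a median of -0.33. The 13 members that contain their partner had 2 lower and 1 higher. Of 210 pairs with overlapping exons 61 members were lower (29.0%), and of 41 pairs without exon overlap 14 were lower (34.1%). The 40 members with a single exon had 9 lower and a median of -0.20, and the 229 spliced members had 69 lower and a median of -0.56. A total of 23 members had exon bases inside another gene of the same strand, whose reads can be shared, and without them 75 of 246 were lower.

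The partners differed much less than the antisense genes but had far more counts, with medians of 3549 and 3045 against 114 and 80. Among protein-coding genes, 17.2% were at least 2-fold lower at 50 to 99 counts and 2.97% at 500 or more. The part of level in the difference between members and partners was not tested. Of the partners, 227 reached 50 counts, and 16 of these were at least 2-fold lower (7.05%) and 12 at least 2-fold higher (5.29%). Over all genes at that minimum the shares were 6.65% and 4.01%. The median log2 ratio of the partners was -0.09. The antisense gene had the lower ratio of the pair in 168 of 247 pairs in which both genes had a ratio. Both genes passed the count minimum in 229 pairs, where the median of the antisense log2 ratio minus the partner's was -0.48. This difference varied with how a member met the count rule. Its median was -0.28 for paired members with 50 or more counts in both libraries, -0.97 for those that reached 50 without LCC-12 only, and 0.68 for those that did so with LCC-12 only. In 11 of these pairs both genes were lower, in 5 both were higher, and in 1 they differed in opposite directions. Of the 16 members whose partner was lower, 11 were lower themselves, whereas 59 of the 201 members whose partner was within 2-fold were lower. Of the 75 lower members with a partner, 59 faced a partner within 2-fold, about the same share as the 201 of all 251 pairs. Across the 229 pairs the log2 ratios of antisense gene and partner had a Pearson coefficient of 0.47 and a Spearman coefficient of 0.43, and across the 33 of them without exon overlap 0.46 and 0.38. These coefficients describe pairs that share the same libraries and, in part, sequence.

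**Figure D3:**
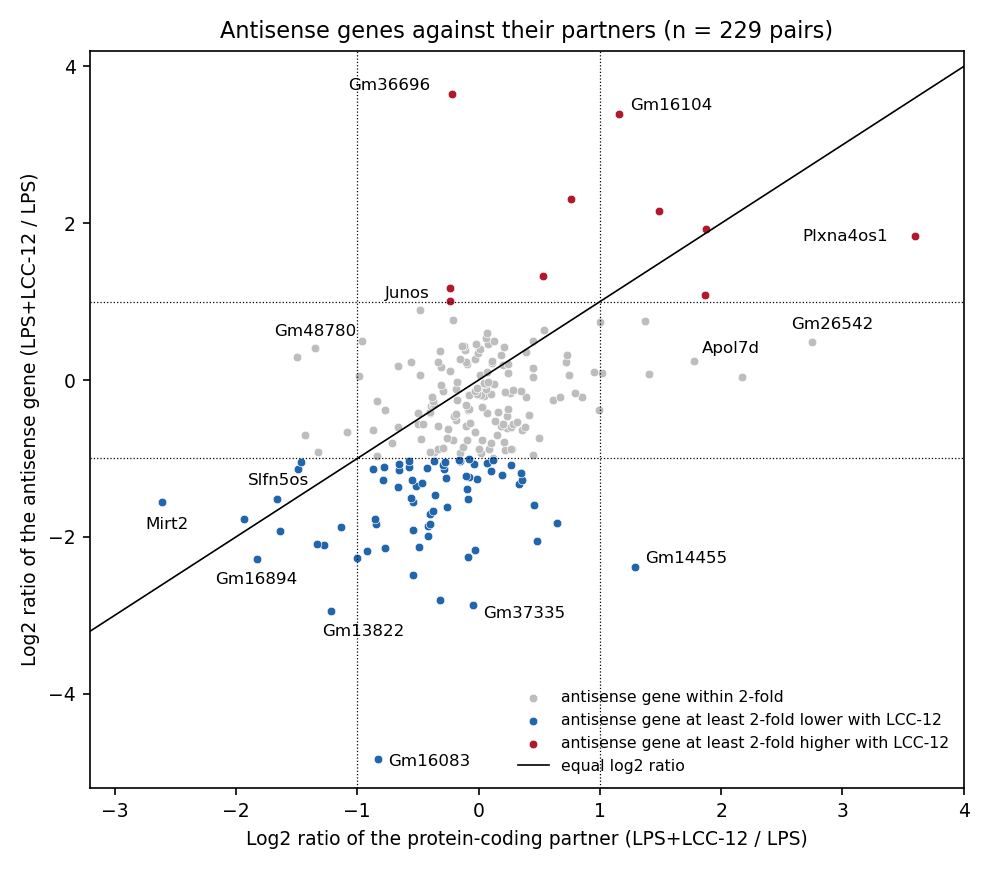
Log2 ratio of each antisense gene (y axis) against that of its protein-coding partner (x axis) for the 229 pairs in which both genes reached 50 counts, with dotted lines at 2-fold and a solid line at equal ratios. The points lie mostly below the solid line, with a median difference of -0.48.

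The partner was sought in 6 lists of genes, which were chosen with earlier results of these data known. The counts by list are therefore a description. In all, 24 pairs had a listed partner, of which 14 antisense genes were lower and none was higher. Of the 227 pairs with a partner in no list, 61 antisense genes were lower (26.9%) and 11 higher. By list, 5 of 5 members facing a cytokine, chemokine or receptor gene were lower, as were 5 of 6 facing an interferon-stimulated or interferon signalling gene and 2 of 2 facing a gene of NF-kB and Toll-like receptor signalling. Of 8 members facing a transcription factor of macrophages 1 was lower. The counts were 1 of 2 for members facing a scavenger, lipid or alternative activation gene and 0 of 1 for an adhesion gene. Some lower members of these lists reached 50 counts only without LCC-12, a class with 38 of 69 lower and 0 higher. They were Gm44876, Gm16712 and Gm42809 (cytokine list), Gm13822 and Gm10552 (interferon list) and Gm26626 (transcription factor list). The other lower members of the lists had 50 or more counts in both libraries. Over all genes of these lists with 50 or more counts, 17 of 69 cytokine, chemokine and receptor genes were lower and 6 higher, 39 of 103 interferon genes were lower and 0 higher, and 5 of 67 NF-kB and Toll-like receptor genes were lower and 0 higher. In the other lists, 1 of 60 macrophage transcription factor genes was lower and 6 higher, 1 of 37 scavenger, lipid and alternative activation genes was lower and 15 higher, and 4 of 46 adhesion and migration genes were lower and 3 higher. The neutrophil and monocyte marker sums were lower in the same library, and their part in these counts was not tested.

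Gm13822 (chromosome 5, 114917318 to 114923277, GRCm38, minus strand) overlaps the start of Oasl1, an interferon-induced relative of the oligoadenylate synthetases, and shares 38 exon bases with it. Gm13822 had 234 and 29 counts and was 7.70-fold lower with LCC-12 (log2 ratio -2.95, -3.58 to -2.41). Oasl1 had 6805 and 2829 counts and was 2.33-fold lower (-1.22, -1.28 to -1.16). The antisense gene was the more strongly reduced of the pair, beyond both counting intervals. Gm16894 (chromosome 1, 40076228 to 40085851, minus strand) lies inside Il1r2, the decoy receptor that binds interleukin-1 without signalling. It had 405 and 80 counts and was 4.88-fold lower, and Il1r2 had 29970 and 8194 counts and was 3.54-fold lower (-1.82, -1.86 to -1.79). No exon base is shared between them. Gm16712 ends against Ebi3, a subunit of interleukin-27, and shares 270 exon bases with it. Gm16712 had 130 and 29 counts (log2 ratio -2.10), while Ebi3 had 7219 and 2898 counts (-1.27). Gm10851 (chromosome 2, 11521706 to 11530836, plus strand) lies inside Pfkfb3, which encodes an activator of glycolysis, and shares no exon base with it. It had 771 and 204 counts and was 3.65-fold lower (-1.87, -2.10 to -1.65), and Pfkfb3 had 39671 and 17461 counts and was 2.20-fold lower.

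Slfn5os (chromosome 11, 82942341 to 82960681, minus strand) crosses the start of Slfn5, an interferon-induced Schlafen gene. It had 235 and 79 counts (log2 ratio -1.52, -1.91 to -1.15), and Slfn5 had 36637 and 11206 counts (-1.66, -1.69 to -1.63). The ratios of this pair differed by less than the counting interval of Slfn5os. Slfn5os shares 559 of its 1102 exon bases with Slfn5, and reads there cannot be assigned with certainty. Mirt2, a long noncoding RNA known to be induced by LPS and to restrain Toll-like receptor signalling, had 793 and 261 counts and was 2.94-fold lower (-1.56, -1.76 to -1.35). Its partner Spatc1 had 179 and 28 counts, and 285 exon bases of Mirt2 lie inside another gene of its own strand. Mirt2 was outside the rule for named genes and was chosen after its values were seen. Il1bos (chromosome 2, 129369897 to 129375748, plus strand) starts inside Il1b, the gene of interleukin-1 beta, and runs past its start. It had 195 and 86 counts (-1.13, -1.52 to -0.76), and Il1b had 47726 and 25220 counts (-0.87, -0.90 to -0.85), ratios that counting error does not separate.

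**Figure D4:**
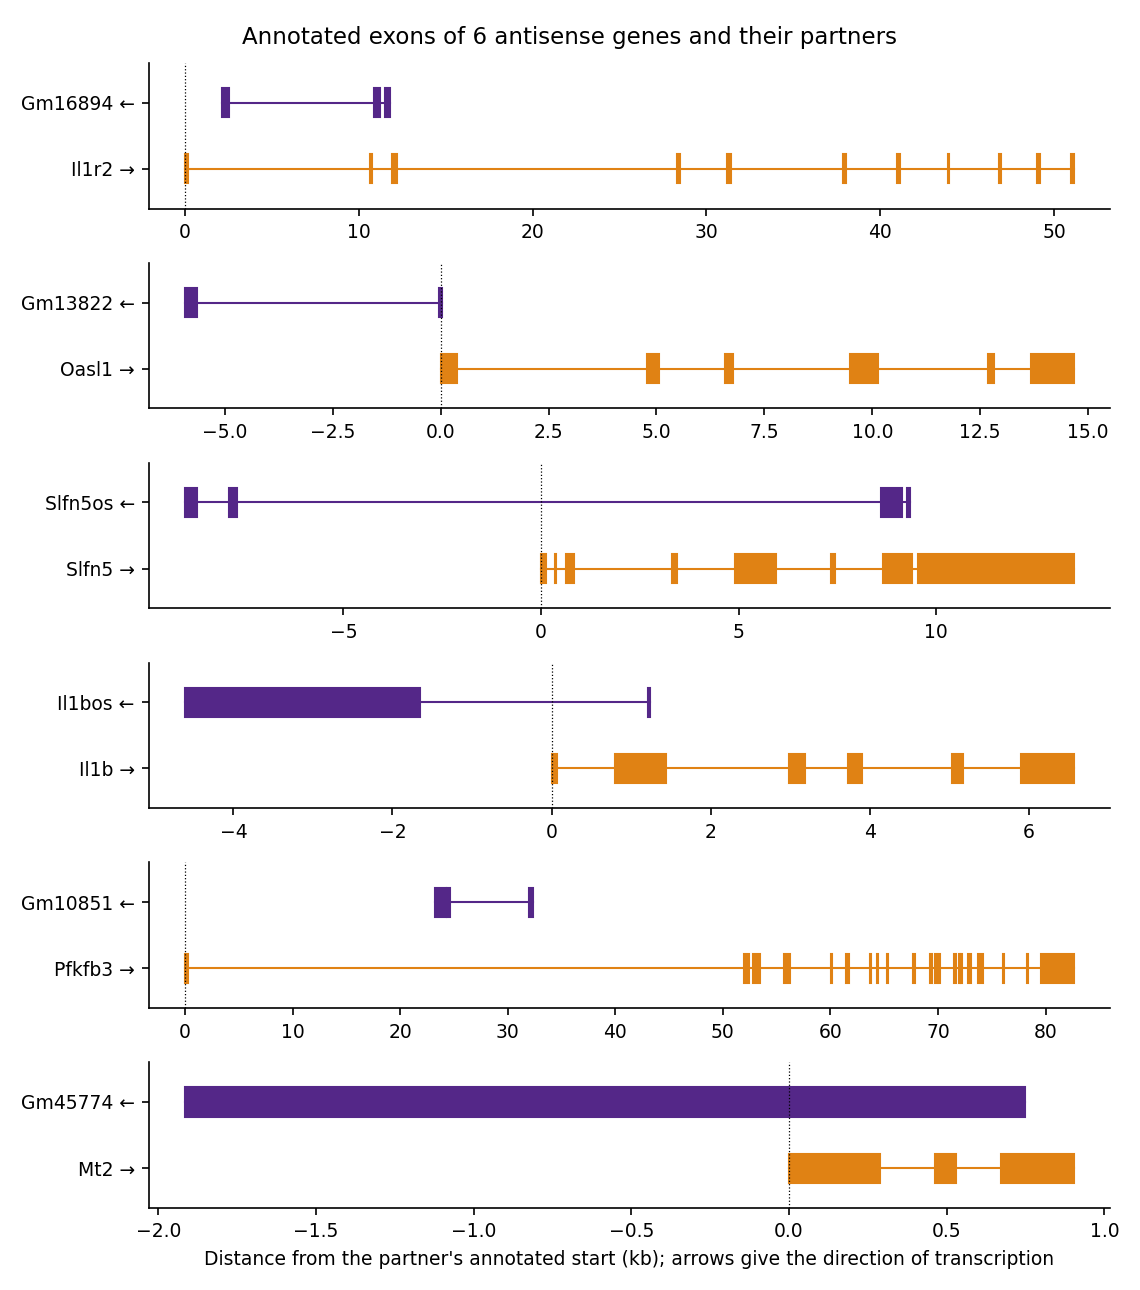
Annotated exons (boxes) and introns (lines) of 6 antisense genes, in violet, and of their partners, in orange, drawn to scale within each panel as distance in kb from the partner's annotated start. Gm13822, Slfn5os, Il1bos and Gm45774 cross the partner's start, and Gm16894 and Gm10851 lie inside the partner with exons in its introns.

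The promoters of 3 of these antisense genes are printed because the ratio was below 0 on both strands of each locus, with 250 bases before and 50 bases after the RefSeq start on GRCm38.p6. Of the 269 members 111 matched a promoter by symbol. Capitals mark matches on either strand to 3 motifs. The interferon-stimulated response element was searched as 2 runs of GAAA with any 2 bases between them, the gamma-activated site as TTCNNNGAA, and the NF-kB site as GGG, any 2 bases and TTTCC. The motifs do not overlap one another in these sequences. The windows are chr5:114922212-114922511 (minus strand) for Gm13822, chr2:11521392-11521691 (plus strand) for Gm10851 and chr2:129369652-129369951 (plus strand) for Il1bos.
Gm13822: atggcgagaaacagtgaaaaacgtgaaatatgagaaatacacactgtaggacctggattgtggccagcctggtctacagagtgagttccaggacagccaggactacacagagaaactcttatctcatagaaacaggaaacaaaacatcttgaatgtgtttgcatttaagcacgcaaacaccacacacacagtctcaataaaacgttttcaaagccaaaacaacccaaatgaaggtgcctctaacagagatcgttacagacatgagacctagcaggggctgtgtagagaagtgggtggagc
Gm10851: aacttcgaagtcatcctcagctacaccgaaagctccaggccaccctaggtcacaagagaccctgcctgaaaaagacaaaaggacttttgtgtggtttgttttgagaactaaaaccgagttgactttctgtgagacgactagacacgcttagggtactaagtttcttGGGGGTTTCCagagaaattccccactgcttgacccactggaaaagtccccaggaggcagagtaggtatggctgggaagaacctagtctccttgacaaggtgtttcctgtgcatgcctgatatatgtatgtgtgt
Il1bos: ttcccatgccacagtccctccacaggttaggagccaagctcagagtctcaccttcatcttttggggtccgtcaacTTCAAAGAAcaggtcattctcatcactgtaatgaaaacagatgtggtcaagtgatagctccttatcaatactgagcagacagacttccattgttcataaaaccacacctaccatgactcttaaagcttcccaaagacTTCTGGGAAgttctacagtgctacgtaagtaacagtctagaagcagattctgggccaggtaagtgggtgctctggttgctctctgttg

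The RefSeq start of Gm13822 lies 979 bases from that of Oasl1, inside the GENCODE gene, so its window is not at the GENCODE start that overlaps Oasl1. That window holds none of the 3 motifs. The Gm16894 start lies 242 bases from a RefSeq start of Il1r2 and the transcripts point away from each other, and its window, which is not printed because it holds untranslated exon sequence of Il1r2, has 1 gamma-activated match. The Gm10851 window, inside Pfkfb3, holds 1 NF-kB match and the Il1bos window, inside Il1b, 2 gamma-activated matches. Both Il1bos matches lie in an annotated exon of Il1b, 794 to 1436 bases from its start, so that printed window also holds partner exon sequence. Such matches were common. Of all 32851 promoters in the table, 3.44%, 8.30% and 1.63% held the 3 motifs in the order above. The promoters of lower members held them in 2, 5 and 1 of 44, or 4.55%, 11.4% and 2.27%. A match is a run of letters, not a measured binding site.

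Some antisense genes were lower while the partner was within 2-fold. Gm16083 (chromosome 1, 130462576 to 130557075, plus strand) overlaps the start of Cd55, which protects cells from complement. It had 73 counts and 2 counts (log2 ratio -4.84, -8.22 to -3.24), and Cd55 had 1929 and 1051 counts (-0.83, -0.94 to -0.72). Gm37335, whose exon bases are all inside exons of the heparan sulfate gene Hs6st1, had 56 and 7 counts (-2.87, -4.33 to -1.82), with Hs6st1 at 1507 and 1411 counts. Gm15518, which ends against the ciliary transport gene Ift57, had 61 and 8 counts (-2.81, -4.16 to -1.82), with Ift57 at 1785 and 1384. In these 3 pairs the antisense gene had under 10 counts with LCC-12, while the partner kept over 1000 counts. All 3 antisense genes reached 50 counts only without LCC-12, a class with 38 of 69 lower and 0 higher. The partners were not selected on their counts.

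Other such pairs had more counts. Gm20234 (chromosome 11, 83065752 to 83071246) ends against Slfn2, a Schlafen gene of immune cell quiescence, and had 478 and 96 counts (log2 ratio -2.26, -2.60 to -1.95). Slfn2 had 50221 and 24336 counts, a difference just inside the 2-fold limit (interval of the log2 ratio -1.02 to -0.98). Its log2 ratio was -1.02 with DESeq2 size factors and -1.03 with the upper quartile, which put both genes of this pair past 2-fold. Gm11592 overlaps 31 exon bases at the start of the aminopeptidase gene Npepps and had 547 and 117 counts (-2.17), with Npepps at 12201 and 6252 (-0.92). Gm45774 (chromosome 8, 94170748 to 94173412) covers the start of the metallothionein gene Mt2, whose product binds zinc and copper. Gm45774 had 996 and 256 counts and was 3.76-fold lower (-1.91, -2.12 to -1.71), while Mt2 had 7444 and 4962 counts (-0.54, -0.59 to -0.49). Gm45774 shares 432 exon bases with Mt2, and its decrease exceeded that of Mt2 beyond both counting intervals.

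Inflammatory signalling genes also had antisense genes of this kind. Gm28913 lies inside Ikbke, a kinase that activates interferon regulatory factors, and had 509 and 174 counts (log2 ratio -1.50, -1.76 to -1.25), with Ikbke at 76856 and 50545 counts (-0.56). Gm44876 lies inside the interleukin-4 receptor gene Il4ra and had 66 and 11 counts (-2.49, -3.61 to -1.61), with Il4ra at 24694 and 16477 (-0.54). Gm19719 lies inside Alox5ap, which is needed for leukotriene synthesis, and had 636 and 294 counts (-1.07, -1.27 to -0.87). Alox5ap had 15221 and 14343 counts (-0.04, -0.07 to -0.01). The intervals of antisense gene and partner did not meet in any of these 3 pairs. Gm28913, Gm44876 and Gm19719 share 65, 571 and 189 exon bases with their partners. Gm14455, which ends against the scaffold gene Cass4, was the 1 member lower with a partner that was higher, with 56 and 10 counts (-2.38, -3.58 to -1.46) beside 768 and 1816 for Cass4 (1.29, 1.17 to 1.41). With a minimum of 200 counts, a mean of 50 counts or a 3-fold limit there were 0 such pairs. Gm14455 and Gm44876 reached 50 counts only without LCC-12.

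**Figure D5:**
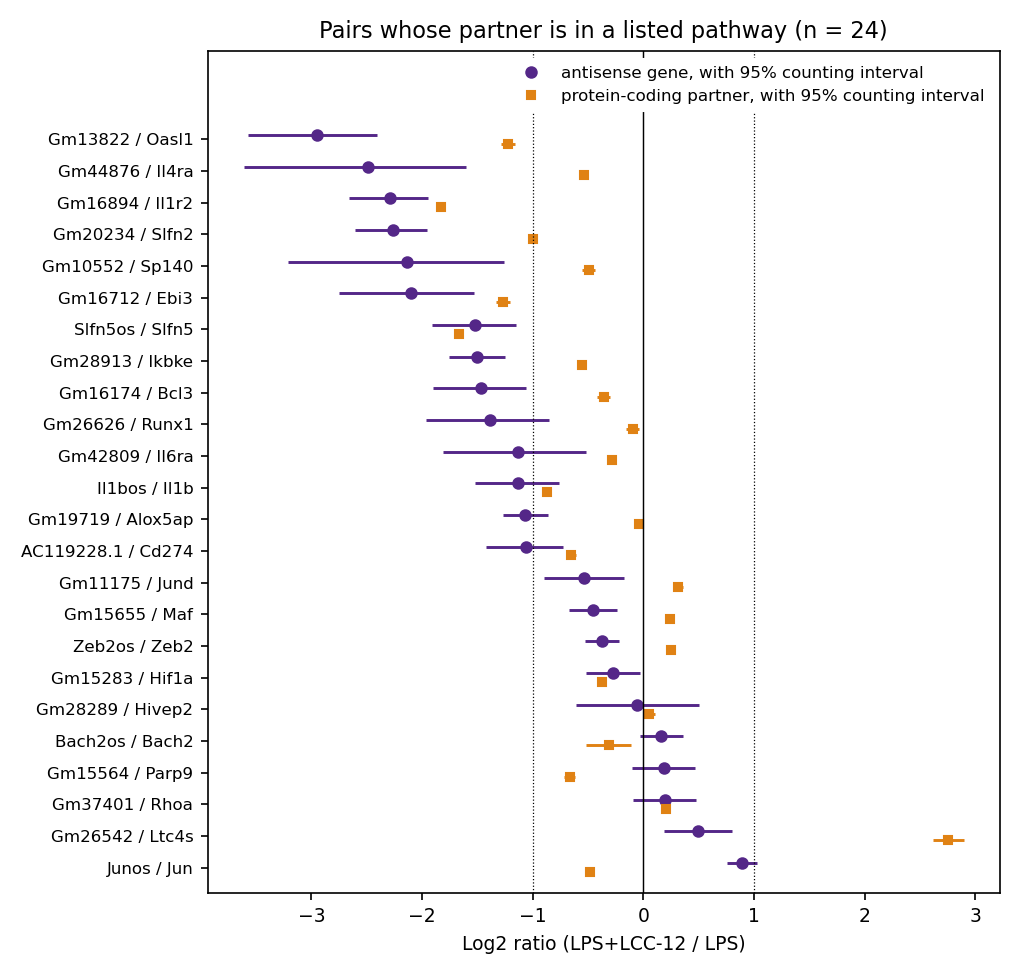
Log2 ratios, LPS+LCC-12 over LPS, of the 24 antisense genes whose partner is in a listed pathway (violet circles) and of those partners (orange squares), with 95% counting intervals as bars that do not include variation between mice. The 14 upper antisense genes are at least 2-fold lower. Antisense gene and partner differ in sign in Junos and Jun, at the bottom, and also in other pairs, among them Zeb2os and Zeb2, and Gm15655 and Maf.

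Antisense genes that were higher with LCC-12 were fewer, and the first 2 had low counts in the LPS library. Gm36696, Gm16104, 1110046J04Rik, Tnfsf13os and Gm49417 reached 50 counts only with LCC-12, a class with 10 of 18 higher and 0 lower. Gm36696 (chromosome 7, 72110761 to 72113456, plus strand) lies inside Mctp2, a membrane protein gene with calcium-binding domains. With 20 and 248 counts its level was 12.5-fold higher (log2 ratio 3.65, 3.02 to 4.41), whereas Mctp2 had 2443 and 2032 counts (-0.22, -0.31 to -0.13). No exon base is shared by this pair. Gm16104 lies inside Nfic, a transcription factor of the nuclear factor I family, and had 21 and 219 counts (3.40, 2.78 to 4.15). Nfic had 4624 and 10015 counts and was also higher (1.16, 1.11 to 1.21). Plxna4os1 lies inside Plxna4, a receptor for semaphorins, and had 66 and 229 counts (1.83), with Plxna4 at 40 and 474 counts (3.60). In these 2 pairs both strands were higher, the antisense gene more so at Nfic and the partner more so at Plxna4.

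1110046J04Rik had 14 and 62 counts and lies inside the protease inhibitor gene Serpinb6a, which was 2.81-fold higher with 1499 and 4077 counts. Tnfsf13os had 14 and 53 counts, and its partner Tnfsfm13, a gene that joins 2 ligands of the tumour necrosis factor family, had 27 and 97. Gm49417 had 47 and 228 counts (log2 ratio 2.31, 1.87 to 2.81), with Ppp3cc, a calcineurin subunit, at 295 and 486 (0.77, 0.55 to 0.98). Gm16287 and 4930455G09Rik overlap no coding gene on the other strand and had 138 and 307 counts and 64 and 198 counts. The nearest coding gene across from 4930455G09Rik is Tmem51, 1996 bases away, with 1008 and 1943 counts. Another member at that gene, Tmem51os1, had 255 and 189 counts (-0.39, -0.67 to -0.11).

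Partners that were higher did not always have a higher antisense gene. Of 12 members with such a partner, 5 were higher and 6 within 2-fold. Gm26542 overlaps the start of Ltc4s, which makes leukotriene C4, and had 152 and 207 counts (log2 ratio 0.49, 0.18 to 0.80), whereas Ltc4s had 475 and 3100 counts and was 6.73-fold higher. In the other direction, Gm48780 lies inside Arg2, an arginase, and had 67 and 86 counts (0.40, -0.07 to 0.89), whereas Arg2 was 2.54-fold lower with 3249 and 1239 counts. Junos overlaps the start of Jun, a subunit of the AP-1 transcription factor. Junos had 702 and 1259 counts (0.89, 0.75 to 1.02) and Jun had 22465 and 15560 (-0.48, -0.51 to -0.45). Both were within 2-fold, on opposite sides of 0 beyond counting error.

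The member with the most counts was F630028O10Rik on chromosome X (96239926 to 96243636, plus strand), a spliced RNA that overlaps no coding gene and contains Mir223 on its own strand. MicroRNA 223 is abundant in neutrophils and other myeloid cells and restrains inflammatory genes. F630028O10Rik had 10357 and 6751 counts, a 1.49-fold lower level (log2 ratio -0.57, -0.62 to -0.53). This is a smaller difference than the 2-fold limit, in libraries whose neutrophil marker sum was lower with LCC-12. The part of neutrophils in it was not tested. Gm35853, which contains Krt80 on the other strand, also contains a microRNA on its own strand, and had 730 and 761 counts. The mature microRNAs from RefSeq follow, with the seed (bases 2 to 8) in capitals, to show what these RNAs carry. The 4 seeds differ, and these libraries do not measure the mature microRNAs.
mmu-miR-223-5p: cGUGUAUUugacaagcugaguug
mmu-miR-223-3p: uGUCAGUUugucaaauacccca
mmu-miR-1941-5p: aGGGAGAUgcugguacagaggcuu
mmu-miR-1941-3p: cAUCUUAGcaguaucucccau

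BC018473 (chromosome 11, 116752167 to 116759373, plus strand) had 5969 and 296 counts and was 19.5-fold lower with LCC-12 (log2 ratio -4.29, -4.46 to -4.12). No gene of the annotation overlaps it on the other strand. The nearest coding gene there is St6galnac1, a sialyltransferase, 5652 bases away, which had 39 and 2 counts (-3.94). Of the 18 members without a coding partner, 3 were lower and 2 higher, with a median of -0.32. The other 2 lower ones were Gm14286, with 152 and 38 counts, and Gm11525, with 292 and 76.

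For 5 further antisense RNAs with names and described functions or loci, the differences were within 2-fold. Kcnq1ot1, an unspliced RNA that silences an imprinted domain on chromosome 7, had 3951 and 3945 counts (log2 ratio 0.04, -0.02 to 0.11). Kcnq1, a potassium channel gene in which it lies, had 12 and 54 counts and was at least 2-fold higher (2.17, 1.30 to 3.25). Airn, which silences Igf2r on the paternal chromosome, had 48 and 63 counts (0.43, -0.13 to 1.01), with Igf2r at 7132 and 6364 (-0.12). Nespas, an imprinted RNA of the Gnas locus, had 208 and 132 counts (-0.61, -0.94 to -0.29), with Gnas at 10636 and 12133 (0.24). Zeb2os faces Zeb2, a transcription factor of macrophage identity, and had 847 and 633 counts (-0.37, -0.52 to -0.22), while Zeb2 had 62456 and 71758 (0.25, 0.23 to 0.26). Tug1, which starts against Morc2a, had 3815 and 3579 counts (-0.05, -0.11 to 0.02), a difference within counting error. For Kcnq1ot1, Airn and Tug1 the interval included 0.

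The further members named here were near equal levels or moderately lower. They do not stand for all abundant members. Among the 28 antisense genes that reached 500 counts in either library, 13 were lower by 2-fold or more with LCC-12. The median log2 ratio of those 28 genes was -0.81. Brip1os, which ends against the Mediator subunit gene Med13, had 1807 and 2104 counts (log2 ratio 0.27), and Gm15987, inside the lectin gene Clec2g, had 3229 and 2519 (-0.31). Clec2g had 835 and 624 counts (-0.37), so both strands of that locus had similar ratios. Gm15655 and Gm15283 face the transcription factor genes Maf and Hif1a and had log2 ratios of -0.45 and -0.27, beside 0.24 and -0.37 for the partners. Every exon base of Gm15655 lies inside exons of the other strand. Gm37401 faces Rhoa, a regulator of the cytoskeleton, with 0.19 beside 0.20.

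Levels of antisense gene and partner were compared as counts per exonic kilobase within a library. The antisense gene had a median of 14.5% of the partner's level without LCC-12 and 8.91% with it. It was above the partner in 44 and 45 of 251 pairs. The partner was more than 20-fold above it in 76 and 87 pairs. The highest ratios were reached where the partner was nearly silent. AC125101.1, which was itself 5.37-fold lower with LCC-12 (324 and 58 counts), was 63.4-fold above the desaturase gene Scd3 without LCC-12, where Scd3 had 8 counts, and AC165951.1 was 75.8-fold above Glp1r, which had 9, although 3494 exon bases of AC165951.1 lie inside another gene of its strand. Gm31597 and Gm5577 were 44.3-fold and 42.3-fold above partners of 9 counts and 1 count. 2010310C07Rik, facing the ephrin receptor gene Epha1 (27 and 4 counts), had 362 and 87 counts. Across the 251 pairs the log2 counts per kilobase of antisense gene and partner had a Pearson coefficient of 0.23 in the LPS library.

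At the edge of the count rule, Gm12867 with 50 and 13 counts, Gm37885 with 33 and 50 and 9330179D12Rik with 51 and 16 were just inside. A830035O19Rik with 49 and 36, Etohd2 with 49 and 49 and Gm15747 with 49 and 37 were just outside.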

How the data were processed

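RNA of cells sorted as small peritoneal macrophages was sequenced as 1 pooled library per group. Libraries were made, per the labels' protocols, from 10 ng of fragmented total RNA with a stranded low-input kit with ribosomal depletion and 12 PCR cycles, and read as pairs of 100 bp. The authors deposited raw counts per gene, whole numbers without normalization. Per the submitters' processing notes STAR and mm10 were used. How reads were counted, on which strand and against which annotation is not stated in the labels.

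Types, exons and coordinates came from GENCODE M21 (GRCm38), which matched 55394 of 55487 gene IDs. Library columns were tied to groups by the codes in the labels. TMM factors from edgeR 4.0.16 (R 4.3.3) scaled the libraries, and 0.5 counts were added in proportion to the scaled size before the log2 ratio. Intervals are exact at 95% (Clopper-Pearson, from how a gene's counts divide between libraries) and cover counting error only. They leave out variation between mice or pools. PCR copies are not independent molecules, so where reads are such copies the intervals are too narrow even for counting error. No test was run. The partner was the protein-coding gene of the other strand with the largest exon overlap, then the largest overlap of gene bodies. Exonic length is the union of all annotated exons. The ratio and interval were tested on simulated data.

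The members and lists were chosen with earlier results of these data known. The genes named were the 12 lower and 8 higher with the interval bound farthest from 0, the 6 with the most counts, the pairs in opposite directions, 12 with listed partners, the 4 highest above the partner and some antisense RNAs of known role. Further pairs were chosen after their values were seen: Mirt2, Apol7d, Gm26542, Gm48780, Gm16712, Tmem51os1, Gm35853, Gm14286, Gm11525, Gm42809, Gm10552 and Gm26626. Alternatives were scaling by total counts, DESeq2 1.42.0 size factors or the upper quartile, 5 added counts, other count minimums and size limits, another choice of partner, and members without shared exon bases.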

Additional observations from a re-analysis of the deposited data

How the results depend on the processing

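Scaling by total counts, DESeq2 size factors or the upper quartile, and 5 added counts, left every count over members, partners and pairs within 1.5 times, with 72 to 80 antisense genes at least 2-fold lower. Counts below are given as antisense genes lower and higher, partners lower and higher, and pairs with both lower, both higher and in opposite directions. With no minimum beyond 1 count they were 618, 337, 123, 81, 79, 35 and 48, and the partners' median log2 ratio was -0.00088. With a minimum of 10 counts they were 277, 107, 48, 30, 33, 10 and 8, and with 200 counts 29, 5, 5, 4, 4, 2 and 0. Antisense genes above their partner per kilobase numbered 199, 116 and 23 under these minimums. A limit of 1.5-fold gave 123, 20, 36, 24, 30, 8 and 2, and a limit of 3-fold gave 36, 7, 5, 6, 3, 2 and 0. With the whole interval beyond 2-fold, 42 antisense genes were lower and 7 higher. A mean of 50 counts left 8 antisense genes higher, 7 partners higher, 2 pairs with both higher and 0 in opposite directions. The partner with the most counts also gave 0 pairs in opposite directions. Pairs without exon overlap had 5 partners lower and 2 higher, a median of -0.22, 2 pairs with both lower, 1 with both higher, 0 in opposite directions and 13 antisense genes above the partner. Members with no exon base in an exon of the other strand had 17 lower and 4 higher of 55. Fewer or more genes enter under the minimums and subsets. The share of antisense genes that were lower was above that of protein-coding genes under the count minimums, 40.5% against 16.1% at 1 count, 35.0% against 8.40% at 10 and 30.9% against 3.21% at 200, and with whole intervals at 15.6% against 2.91%. Log2 ratios of the named genes and partners moved beyond their counting interval in 28 comparisons and stayed inside it in 284, with no change of sign among those past 2-fold.

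Counts under about 50 limit these ratios, and 69 members were below that in the LPS+LCC-12 library and 18 in the LPS library. Variation between mice or pools was not measured. No paired analysis was possible because each group is 1 library.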

Other observations

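Some antisense RNAs of inflammatory loci lie under the count rule or carry another gene type and so are not among the 269 members. Gm16685, an antisense gene, had 27 and 4 counts, and Ptgs2os, annotated as a processed transcript on the strand opposite the prostaglandin synthase gene Ptgs2, had 22 counts and 1 count. Ptgs2os2, annotated as a lincRNA, had 45 and 40 counts. Dleu2 and Zfas1, host transcripts of small RNAs that are annotated as processed transcripts, had 6183 and 5227 counts and 558 and 340 counts. With so few counts in the first 3 genes, no size of difference is given.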
